A study of Mus musculus with 60 samples.

Results

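Cancer-associated fibroblasts (CAFs) of the mouse were grown as multicellular aggregates together with 344SQ lung adenocarcinoma cells, and their transcripts were compared with those of CAFs aggregated alone. The comparison takes its members from the sample labels: 3 libraries of CAFs aggregated with 344SQ cells and 3 of CAFs aggregated alone, 6 of the 60 libraries of the series. Every gene of the count table belongs to it. The labels call the fibroblasts tCAFs without explaining the prefix, name the libraries of CAFs alone CAF-GFP, and give no strain, age, tissue or passage. Before lysis the CAFs were enriched by fluorescence-activated sorting. All groups share that sort and the aggregate format, and they differ in the cancer cell they were mixed with. 3 further aggregate libraries, of CAFs with 393P cells, entered the same fit and serve as another comparison. CAFs kept apart from 344SQ cells by the membrane of a Boyden chamber, with 5 biological replicates in each of 2 groups (344SQ and CAFs alone), serve as a further one. CAFs kept apart from 393P cells in the same way, also with 5 biological replicates, entered the fits of the chamber, and their results are not given here. 344SQ is known as a metastatic line and 393P as a poorly metastatic one, and each is a single line. The labels call the replicates biological without naming separate isolates of fibroblasts, and p-values therefore measure the spread between these samples, which may be technical.

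CAFs are the fibroblasts of a tumour. They lay down and remodel its matrix, and they send growth factors, chemokines and cytokines to the cells around them. Secreted Wnt, bone morphogenetic protein (BMP) and transforming growth factor beta (TGF-beta) ligands bind receptor pairs on the fibroblast surface and change transcription, and most of these pathways switch on their own inhibitors, which therefore serve as readouts of the pathway. Fibroblasts rich in contractile and matrix proteins are often called myofibroblastic CAFs, and those rich in cytokines and complement proteins inflammatory CAFs. In direct co-culture a fibroblast meets surface-bound ligands and secreted factors of the cancer cell, whereas across a membrane it meets secreted factors alone.

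The 3 libraries of CAFs with 344SQ held 944490, 951000 and 1090336 counts, against 1135567, 757717 and 986653 in CAFs alone. Genes of ribosomal RNA type, mitochondrial rRNA included, took 39.1%, 47.0% and 40.3% of the counts with 344SQ and 40.3% to 42.4% in CAFs alone. Replicate 2 of the 344SQ group stood somewhat apart: its log2 levels correlated with those of replicates 1 and 3 by 0.912 and 0.915 across the genes tested, against 0.931 between replicates 1 and 3. The 15 pan-fibroblast genes summed to 19884 to 22763 CPM (counts scaled to a total of 1000000 per library) with 344SQ and 18792 to 21827 CPM alone. Most of this was Fn1, fibronectin, which other cells also make, with 15659, 12902 and 17178 counts with 344SQ and 12297, 11863 and 13544 alone. Of the more specific genes, Pdgfra had 354, 182 and 298 counts with 344SQ and 815, 276 and 354 alone, while Lum was at 0 in 5 of the 6 libraries. Of 14 tested, 2 rose (Thy1 and Serpinf1) and 2 fell (Pdgfra and Dcn). With single libraries left out 1 or 2 rose and at most 1 fell, and only the call of Thy1 held each time. Of 44 carcinoma markers, 13 had no count in any of the 6 libraries, Epcam among them. These markers are epithelial, and no library of 344SQ cells alone shows which of them the line expresses. The carcinoma list summed to 63.5, 81.0 and 78.0 CPM with 344SQ, against 51.1, 52.8 and 55.7 CPM alone, of which Cxadr gave 36.0, 46.3 and 33.9 CPM with 344SQ and 28.2, 30.4 and 23.3 CPM alone. Cldn4 had 0, 6 and 12 counts with 344SQ and 1, 0 and 1 alone, and Cdh1 stayed between 1.01 and 4.40 CPM in the 6 libraries. The 26 leukocyte markers summed to 29.4 to 37.6 CPM with 344SQ and 28.4 to 44.9 CPM alone, with Ptprc at 0. The 16 endothelial markers summed to 59.9 to 133 CPM with 344SQ and 66.9 to 96.3 CPM alone, with Cdh5 at 0. Mural cell markers summed to 470.5 to 560.1 CPM with 344SQ and 386 to 428 CPM alone, with Rgs5 at 0. Pdgfrb, which fibroblasts express too, gave 507, 456 and 415 CPM of this with 344SQ and 367, 399 and 348 CPM alone, and Cspg4 was called higher, a call lost without 5 of the 6 libraries. Mesothelial markers summed to 12.6 to 36.0 CPM with 344SQ and 47.5 to 65.2 CPM alone. Neural and erythrocyte markers stayed under 24 CPM in sum in each library. The part of any of these cells in the results below was not tested. In bulk RNA, fewer cells of a type and less RNA per cell cannot be told apart.

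Of 48440 genes listed, 22007 had a count in at least 1 of the 6 libraries and 7992 had enough counts to be tested. edgeR's quasi-likelihood test called 467 genes at a Benjamini-Hochberg adjusted p under 0.05, 5.84% of those tested. With 344SQ contact 278 genes rose (3.48%) and 189 fell (2.36%). The median log2 change over all genes tested was -0.0067, and the median size of the change among the genes called was 1.17. A rise of more than 2 on the log2 scale was called for 39 genes and a fall of more than 2 for 32. The ranges of the 2 groups were separate for 456 of the 467 genes called, and for 21.5% of all genes tested. When each of the 6 libraries was left out in turn, 199 genes kept their call and direction every time, 113 of them higher and 86 lower with 344SQ. The count of calls was most sensitive to CAFs alone replicate 3, without which 284 genes were called, 160 higher and 124 lower. The genes called were nearly all protein coding (448 of 467). Over the 278 genes that rose, the median log2 difference from the mean of CAFs alone was 0.968, 1.24 and 1.11 in replicates 1, 2 and 3 with 344SQ, a likeness that the choice of these genes by their rise partly fixes.

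**Figure D1:**
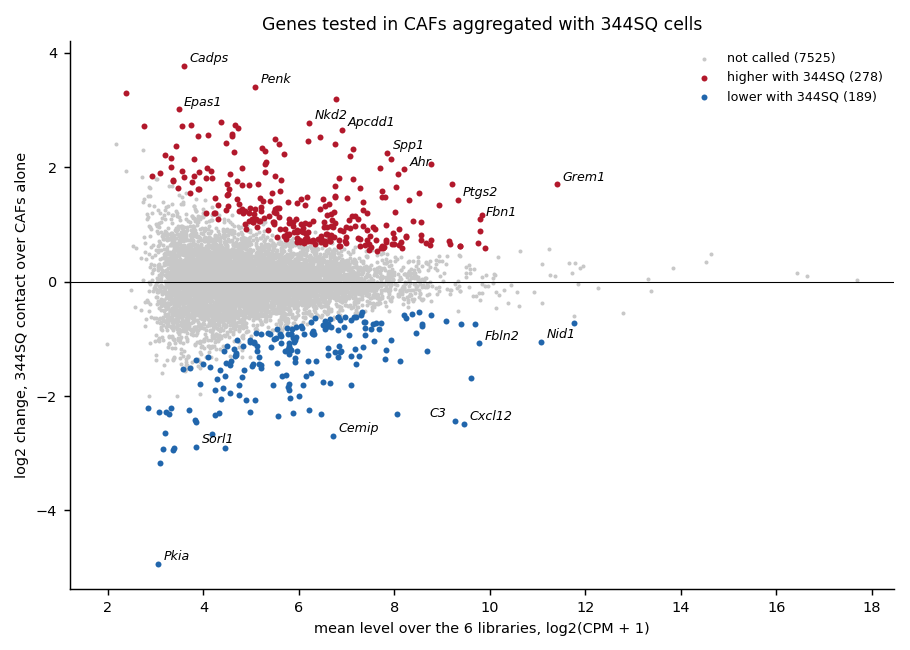
Log2 change with 344SQ contact over CAFs alone (vertical axis) against the mean level of each gene over the 6 libraries, as log2(CPM + 1) (horizontal axis). Each point is 1 of 7992 genes tested, red for the 278 called higher with 344SQ and blue for the 189 called lower, and the named points are genes described in the text.

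The largest rises that kept their call without any 1 library included genes of secretion, Wnt inhibition and transcription. Penk, which encodes the opioid peptide precursor proenkephalin (ENSMUSG00000045573.9, chromosome 4, 4133531 to 4138819), had 31.9, 84.9 and 64.4 CPM in CAFs with 344SQ, against 6.89, 2.64 and 6.27 CPM in CAFs alone. The values did not overlap, and the log2 change was 3.41 ± 0.42 (SE; adjusted p = 1.95e-06). Cadps, which primes dense-core vesicles for release, had 29.8, 13.3 and 18.7 CPM in CAFs with 344SQ, against 0.862, 1.32 and 2.09 CPM in CAFs alone. In raw counts Cadps had 60 over the 3 libraries with 344SQ and 4 in CAFs alone, a depth-scaled ratio of 15.02 (95% exact interval 5.57 to 56.9, counting error only). Epas1, the hypoxia-inducible factor HIF-2 alpha (ENSMUSG00000024140.9, chromosome 17, 86753700 to 86833410), had 14.4, 23.04 and 16.8 CPM in CAFs with 344SQ, against 0.862, 2.64 and 3.14 CPM in CAFs alone, so its lowest library with 344SQ lay well above its highest alone. Ism1, a secreted protein known as isthmin, had 37.0, 29.1 and 37.3 CPM in CAFs with 344SQ, against 5.17, 3.96 and 5.23 CPM in CAFs alone, and its spread within each group was small beside the gap. Cd53, a tetraspanin known from leukocytes, rose to 42.6 ± 9.35 CPM (SD, n = 3) with 344SQ, against 5.87 ± 3.12 CPM alone. Any part of leukocytes in this rise was not tested. Lin7a, a scaffold of cell polarity, rose by 2.73 ± 0.55 on the log2 scale. Etv1, an ETS transcription factor, rose by 2.72 ± 0.59, and by 3.85 without CAFs alone replicate 1. Alcam, an immunoglobulin adhesion molecule, had 35.0, 33.9 and 51.3 CPM in CAFs with 344SQ, against 6.03, 6.61 and 7.32 CPM in CAFs alone, so the lowest library with 344SQ was several times the highest alone. Sema7a, a membrane-anchored semaphorin, had 31.9, 19.4 and 30.8 CPM in CAFs with 344SQ, against 1.72, 9.25 and 4.18 CPM in CAFs alone, with CAFs alone replicate 2 the highest of its group.

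**Figure D2:**
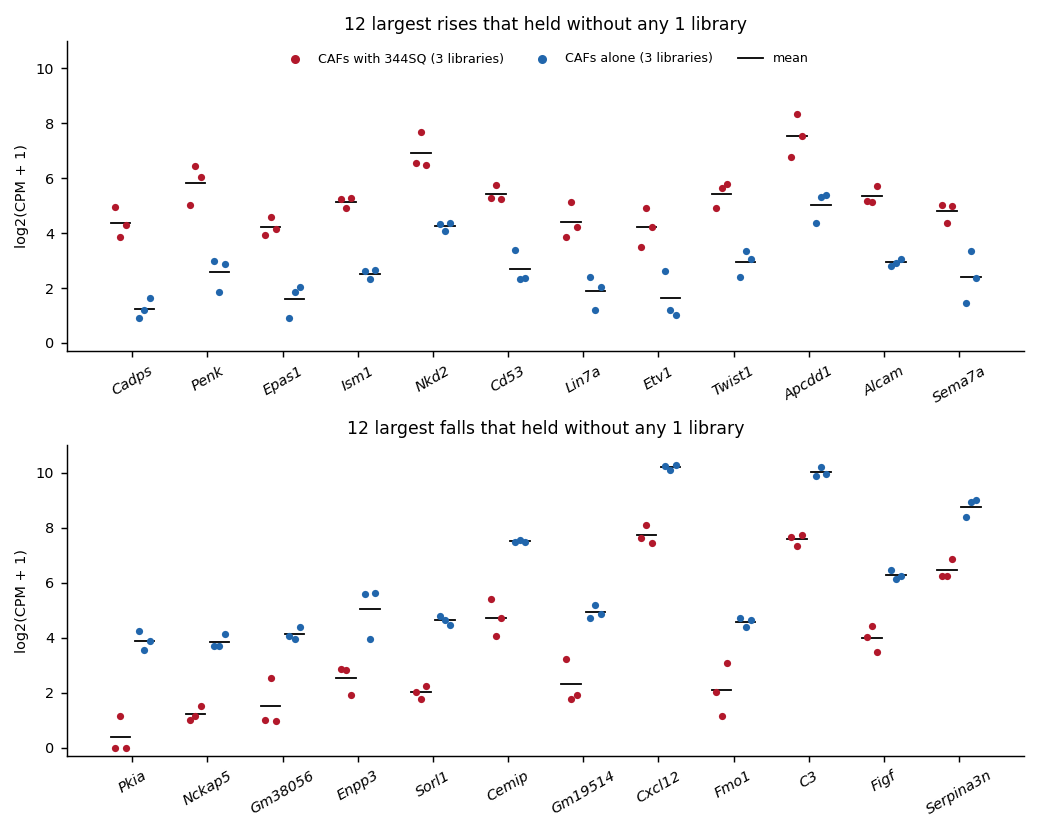
Level of the 12 genes with the largest rises (top) and the 12 with the largest falls (bottom) among those that kept their call without any 1 library, as log2(CPM + 1). Points are the single libraries, red for the 3 of CAFs with 344SQ and blue, to their right, for the 3 of CAFs alone, and bars are means. The groups do not overlap for any of the 24 genes, which the choice of these genes required.

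Cxcl12, a fall, had the smallest p of all genes tested. It encodes the chemokine that draws cells bearing CXCR4 (ENSMUSG00000061353.11, chromosome 6, 117168535 to 117181367), and it had 196, 272 and 174 CPM in CAFs with 344SQ, against 1214, 1108 and 1251 CPM in CAFs alone. That was a log2 change of -2.48 ± 0.17 (adjusted p = 1.33e-10), with the highest library with 344SQ far under the lowest alone. C3, the central complement component (ENSMUSG00000024164.15, chromosome 17, 57203970 to 57228136), had 201, 159 and 215 CPM in CAFs with 344SQ, against 949.6, 1174 and 984 CPM in CAFs alone. Cemip, which starts the breakdown of hyaluronan (ENSMUSG00000052353.13, chromosome 7, 83932857 to 84086502), had 41.1, 15.8 and 25.2 CPM in CAFs with 344SQ, against 177, 189 and 177 CPM in CAFs alone, and the 3 libraries of CAFs alone were nearly equal. Serpina3n, an inhibitor of serine proteases, had 74.0, 75.2 and 117 CPM in CAFs with 344SQ, against 333, 485 and 512 CPM in CAFs alone. Figf, the gene of the lymphangiogenic factor VEGF-D, had 15.4, 20.6 and 10.3 CPM in CAFs with 344SQ, against 87.0, 70.0 and 75.3 CPM in CAFs alone. For both, each library with 344SQ lay under each library of CAFs alone. Serpina3n lies in a cluster of near-identical genes, so its counts may be shared with its neighbours. Pkia, an inhibitor of protein kinase A, had 1 count over the 3 libraries with 344SQ and 42 in CAFs alone, a depth-scaled ratio of 0.0238 (95% exact interval 0.00059 to 0.140, counting error only). Nckap5 had 4 counts with 344SQ and 39 alone. Enpp3, an ectoenzyme that cleaves nucleotides, had 6.17, 6.06 and 2.80 CPM in CAFs with 344SQ, against 47.4, 14.5 and 48.1 CPM in CAFs alone, with CAFs alone replicate 2 the lowest of its group. Sorl1, a sorting receptor of endosomes, had 3.08, 2.42 and 3.73 CPM in CAFs with 344SQ, against 26.7, 23.8 and 20.9 CPM in CAFs alone, with a wide gap between the groups. Fmo1, a flavin-containing monooxygenase, changed by -2.45 ± 0.51 on the log2 scale, and the uncharacterised transcripts Gm38056 and Gm19514 by -2.91 ± 0.61 and -2.66 ± 0.44. Gm19514 lies within Adam12, on the same strand, and Adam12 fell too, as given below. Counts of Gm19514 cannot be told apart from unspliced Adam12 RNA.

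The promoters of Cxcl12 and Cemip, and of Nrp2 and Spp1, which rose and are described below, were looked up in RefSeq (GRCm38.p6, the assembly of mm10) to show which known motif letters stand before genes that moved. The 250 bases before the annotated start site are given 5′ to 3′ on the strand of the gene, and the capitals mark the motif.
Cxcl12, chr6:117168285-117168534, plus strand, TCF/LEF motif ATCAAAG: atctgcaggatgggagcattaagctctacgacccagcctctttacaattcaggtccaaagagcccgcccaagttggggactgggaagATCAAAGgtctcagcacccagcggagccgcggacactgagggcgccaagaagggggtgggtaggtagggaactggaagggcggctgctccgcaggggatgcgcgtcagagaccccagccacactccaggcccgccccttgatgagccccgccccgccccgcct
Nrp2, chr1:62703067-62703316, plus strand, TCF/LEF motif on the other strand: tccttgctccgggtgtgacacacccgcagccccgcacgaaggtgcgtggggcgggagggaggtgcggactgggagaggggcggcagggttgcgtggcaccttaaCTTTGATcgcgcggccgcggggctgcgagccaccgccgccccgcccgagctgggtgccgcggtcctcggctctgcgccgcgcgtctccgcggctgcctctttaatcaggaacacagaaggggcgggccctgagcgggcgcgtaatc
Cemip, chr7:84086506-84086755, minus strand, TATA box TATAAA: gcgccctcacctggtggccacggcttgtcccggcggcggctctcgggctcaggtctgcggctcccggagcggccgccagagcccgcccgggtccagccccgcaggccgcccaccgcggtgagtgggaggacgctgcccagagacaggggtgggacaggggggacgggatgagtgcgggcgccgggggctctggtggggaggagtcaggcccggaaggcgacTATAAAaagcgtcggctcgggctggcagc
Spp1, chr5:104434861-104435110, plus strand, SMAD motif CAGACA on the other strand: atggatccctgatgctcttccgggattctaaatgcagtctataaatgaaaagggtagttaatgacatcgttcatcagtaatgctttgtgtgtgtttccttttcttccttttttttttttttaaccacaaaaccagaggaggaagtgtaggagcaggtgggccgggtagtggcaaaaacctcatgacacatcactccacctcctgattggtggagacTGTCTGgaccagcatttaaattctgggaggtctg
The first base of the motif lay 163 bases before the start site in Cxcl12, 146 in Nrp2, 29 in Cemip and 34 in Spp1. In windows of 300 bases (250 before and 50 after the start), searched on both strands, ATCAAAG was present in 4.48% of 268 windows of genes that rose, 2.73% of 220 windows of genes that fell and 2.42% of 8102 windows of all genes tested. The AP-1 motif TGANTCA stood in 4.48%, 8.64% and 4.84% of the same windows, the TATA box TATAAA in 10.8%, 10.9% and 6.83%, and CAGACA in 21.3%, 22.3% and 14.9%. None of these 4 motifs contains another. They are a part of the motifs searched. Of the others, the CRE motif TGACGTCA stood in 0.373%, 0.909% and 3.02% of the same windows. The E-box CACGTG stood in 5.97%, 10.5% and 10.6%, and the TEAD motif GGAATG in 15.3%, 13.2% and 11.6%. The median number of CG dinucleotides per window was 17 in genes that rose, 16 in genes that fell and 22 in all genes tested. Windows were found for 192 of 278 genes that rose, 148 of 189 that fell and 6173 of 7992 tested. These shares describe letters, with no test, and a window without a motif says nothing about binding elsewhere.

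Feedback genes and inhibitors of the Wnt pathway rose. Of 77 genes listed, the longest of the lists, 46 were tested, 13 rose and 0 fell, where 3.48% of all genes tested rose and 2.36% fell. The log2 change was above 0 for 32 of the 46. Without single libraries 9 to 12 rose and at most 1 fell. The median change of the list was 0.342 on the log2 scale, against -0.0067 over all genes tested. As a share of those tested, calls in either direction were more frequent in several shorter lists, among them aryl hydrocarbon and retinoid signalling (5 of 8), matrix glycoproteins (10 of 26) and the EGF family (6 of 17). Counts of every list below are to be read against the same shares of all genes tested, and a list with few calls may lie near them. Among the genes listed as feedback and target genes 6 of 10 rose, with the planar polarity gene Prickle1 counted among them. Axin2, the scaffold that Wnt signalling induces and that then limits it, had 54.5, 77.6 and 56.0 CPM in CAFs with 344SQ, against 12.9, 7.93 and 22.0 CPM in CAFs alone (ENSMUSG00000000142.15, chromosome 11, 108920349 to 108950783). Nkd2, which binds Dishevelled and restrains the pathway (ENSMUSG00000021567.14, chromosome 13, 73818534 to 73847631), had 93.6, 204 and 87.7 CPM in CAFs with 344SQ, against 18.96, 15.9 and 19.9 CPM in CAFs alone. Prickle1, of the planar polarity branch, had 56.6, 64.3 and 63.4 CPM in CAFs with 344SQ, against 16.4, 7.93 and 10.5 CPM in CAFs alone. Twist1, a mesenchymal transcription factor that Wnt can induce, had 28.8, 48.5 and 54.1 CPM in CAFs with 344SQ, against 4.31, 9.25 and 7.32 CPM in CAFs alone. For each of these 4 genes every library with 344SQ exceeded every library alone, and the log2 changes ran from 2.09 ± 0.31 for Axin2 to 2.78 ± 0.30 for Nkd2. The cyclin gene Ccnd1 rose by 1.06 ± 0.29, a call lost without CAFs alone replicate 1 or 3 or 344SQ replicate 3, the last of which lowered the change to 0.69.

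Inhibitors that act outside the cell or at its membrane rose as well, 4 of 7 tested, with a median log2 change of 1.22. Apcdd1, a membrane inhibitor of Wnt and BMP signals, had 107, 325 and 183 CPM in CAFs with 344SQ, against 19.8, 38.3 and 40.8 CPM in CAFs alone, with replicate 2 the highest. Sfrp2, a secreted frizzled-related protein that binds Wnt ligands (ENSMUSG00000027996.13, chromosome 3, 83766321 to 83774316), had 128, 136 and 102 CPM in CAFs with 344SQ, against 31.0, 21.1 and 12.5 CPM in CAFs alone. Kremen1, a receptor for the Dickkopf inhibitors, had 134, 162 and 148 CPM in CAFs with 344SQ, against 71.5, 75.3 and 43.9 CPM in CAFs alone, also without overlap. Of 12 receptors tested only Fzd1 was called, at 358 ± 65.2 CPM with 344SQ and 153 ± 7.98 CPM alone (SD, n = 3 each; log2 change 1.22 ± 0.17, adjusted p = 1.50e-05). Of 14 intracellular members the transcription factors Lef1 and Tcf7 rose, by 1.83 ± 0.51 and 1.20 ± 0.36. Lef1 lost its call without CAFs alone replicate 1 or 3 or 344SQ replicate 2 (adjusted p = 0.159, 0.109 and 0.225 in edgeR), and Tcf7 without any of 5 of the 6 libraries. Of 18 ligands listed only Wnt5a, Rspo3 and Wnt7b had enough counts, and 0 were called by edgeR, by DESeq2 or at an unadjusted p under 0.05. The log2 change of Rspo3 was 0.32 ± 0.32 and that of Wnt7b 0.19 ± 0.32.

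**Figure D3:**
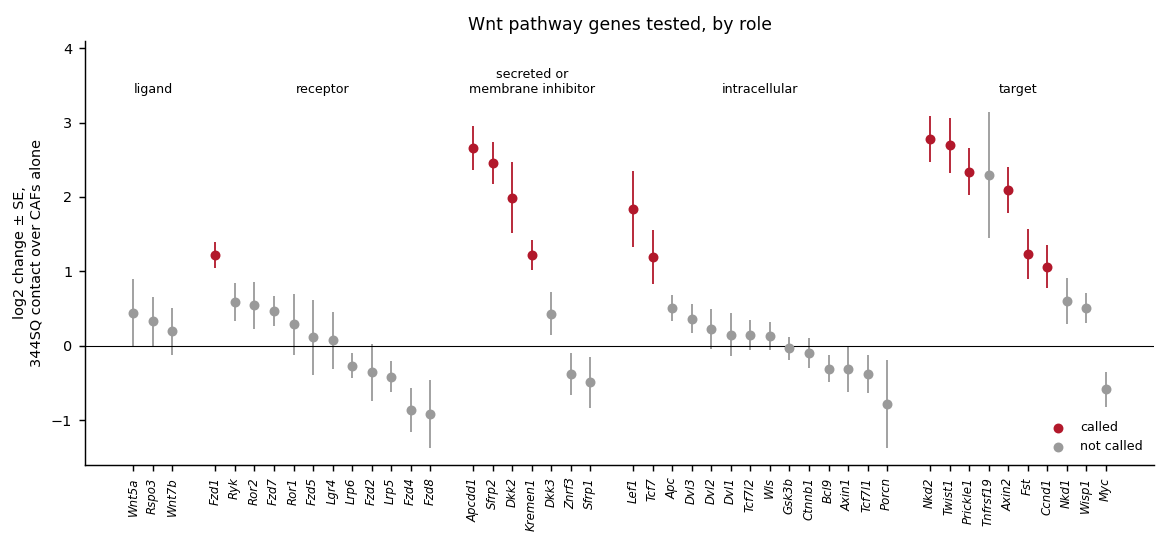
Log2 change with 344SQ contact over CAFs alone, with its standard error, for the 46 Wnt pathway genes tested, grouped by role from ligands (left) to targets (right). Red points are the 13 genes called, all higher with 344SQ, and grey points are not called. Genes listed as inhibitors and targets, with Prickle1 among the targets, hold 10 of the 13 calls, receptors 1 (Fzd1) and ligands 0.

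In the BMP list 3 of 21 genes rose and 1 fell (median log2 change 0.154), and without CAFs alone replicate 1 a single gene rose. Grem1, a secreted BMP antagonist known from CAFs, had 3754, 4689 and 3993 CPM in CAFs with 344SQ, against 1104, 1516 and 1206 CPM in CAFs alone, a log2 change of 1.70 ± 0.17 (adjusted p = 6.34e-08). Bmper, another BMP-binding protein, went the other way, with 105, 69.1 and 88.6 CPM in CAFs with 344SQ, against 197, 219 and 178 CPM in CAFs alone. For both genes the groups were separated by clear gaps. Of 8 BMP receptors and Smads tested 0 were called by edgeR or DESeq2, and 1 had an unadjusted p under 0.05. The BMP target Id3 rose by 0.76 ± 0.19, a call lost without CAFs alone replicate 1 or 3 or 344SQ replicate 2. In the TGF-beta list 5 of 32 genes rose and 1 fell (median log2 change 0.204), and 3 rose without CAFs alone replicate 3. Inhbb, the beta B chain of activin and inhibin, had 68.9, 67.9 and 88.6 CPM in CAFs with 344SQ, against 11.2, 13.2 and 15.7 CPM in CAFs alone (ENSMUSG00000037035.5, chromosome 1, 119415465 to 119422248), so that its lowest library with 344SQ was over 4 times its highest alone. Lrrc32, which holds latent TGF-beta at the cell surface, had 249, 354 and 333 CPM in CAFs with 344SQ, against 119.8, 100.4 and 115 CPM in CAFs alone. Pmepa1, a TGF-beta target that damps the pathway, had 183, 219 and 206 CPM in CAFs with 344SQ, against 80.1, 102 and 102 CPM in CAFs alone. Again no library alone reached the 344SQ range. Tgfbr3, the co-receptor betaglycan, changed by -0.56 ± 0.17, with overlapping groups and a call lost without any of 4 libraries.

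In the EGF family list 6 of 17 genes rose and 0 fell, with a median log2 change of 0.420. The EGF family ligand Ereg, epiregulin (ENSMUSG00000029377.5, chromosome 5, 91074622 to 91093646), had 173, 154 and 214 CPM in CAFs with 344SQ, against 22.4, 44.9 and 37.6 CPM in CAFs alone, a log2 change of 2.40 ± 0.25 (adjusted p = 1.34e-07). Among 13 genes tested that are induced by ERK signalling and feed back on it, 5 rose and 0 fell, and 3 rose without CAFs alone replicate 1 or 3 or 344SQ replicate 2. Spred1 and Spry4, inhibitors of the Ras to ERK cascade, rose by 1.46 ± 0.19 and 1.59 ± 0.25 on the log2 scale, and the ETS factor Etv4 by 1.69 ± 0.29. Spred1 had 168, 190.3 and 201 CPM in CAFs with 344SQ, against 65.5, 83.3 and 56.4 CPM in CAFs alone, with no overlap.

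The list of other growth factors held 6 rises and 6 falls among 35 genes tested, with a median log2 change of 0.183, and 3 falls without 344SQ replicate 3. Of its 13 ligands 3 rose and 2 fell, and 1 fell without any library other than 344SQ replicate 1. Fgf2, basic fibroblast growth factor, had 77.1, 109 and 79.3 CPM in CAFs with 344SQ, against 41.4, 34.4 and 25.1 CPM in CAFs alone. Vegfa, the main angiogenic factor, had 609.8, 566 and 352 CPM in CAFs with 344SQ, against 292, 218 and 227 CPM in CAFs alone. Figf fell, as given above, so 2 genes of the VEGF family moved in opposite directions. Among 14 receptors and receptor partners, Nrp2, a co-receptor for VEGF-C and semaphorins, had 38.05, 84.9 and 58.8 CPM in CAFs with 344SQ, against 13.8, 15.9 and 17.8 CPM in CAFs alone. Gas6, listed here with its receptors and known as the ligand of the TAM receptors, had 67.9, 29.1 and 38.2 CPM in CAFs with 344SQ, against 185, 133 and 146 CPM in CAFs alone. Met, the receptor of hepatocyte growth factor, had 10.3, 4.85 and 10.3 CPM in CAFs with 344SQ, against 23.3, 42.3 and 31.4 CPM in CAFs alone. Nrp2 was higher and Gas6 and Met lower in each library with 344SQ than in any alone. Pdgfra, the platelet-derived growth factor receptor alpha, had 364, 221 and 278 CPM in CAFs with 344SQ, against 702, 365 and 370.1 CPM in CAFs alone and changed by -0.74 ± 0.20, but by -0.36 (adjusted p = 0.346) without CAFs alone replicate 1, its highest library, and the call was also lost without 344SQ replicate 2 or 3. Pdgfrb, the beta receptor, had 492.6, 526.2 and 423 CPM in CAFs with 344SQ, against 359, 399 and 359 CPM in CAFs alone and was not called (log2 change 0.37 ± 0.16, adjusted p = 0.244). Igfbp5, a binding protein of insulin-like growth factors, had 25.7, 46.1 and 517 CPM in CAFs with 344SQ, against 19.8, 29.1 and 17.8 CPM in CAFs alone. Its log2 change of 3.19 ± 0.64 rested on replicate 3 and was 0.69 (adjusted p = 0.471) without it. The same library set the call of Stc1, stanniocalcin 1, which changed by 1.51 ± 0.37 and by 0.75 (adjusted p = 0.318) without it, and whose call was also lost without CAFs alone replicate 1.

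Among 31 chemokine, cytokine and receptor genes tested 4 rose and 4 fell (median log2 change 0.127). The rises were cytokines, and the falls were 1 chemokine and 3 receptors. Spp1, osteopontin (ENSMUSG00000029304.14, chromosome 5, 104435118 to 104441050), had 495, 314 and 330.2 CPM in CAFs with 344SQ, against 87.9, 70.0 and 79.4 CPM in CAFs alone, a log2 change of 2.25 ± 0.19 (adjusted p = 4.94e-09). Il33, an alarmin of the interleukin 1 family, had 104, 161 and 389 CPM in CAFs with 344SQ, against 48.3, 59.5 and 37.6 CPM in CAFs alone. The groups did not overlap, but replicate 3 was the highest by far, and without it the log2 change of 2.19 ± 0.34 became 1.45 (adjusted p = 0.00348). DESeq2 put the adjusted p of Il33 at 0.0660. Tnfsf9, the ligand of 4-1BB, rose by 1.39 ± 0.25. Of 8 cytokines tested 4 rose, of 7 chemokines Cxcl12 fell, and of 16 receptors 3 fell. Among those 3, Il1r1, the interleukin 1 receptor, had 104, 110.3 and 157 CPM in CAFs with 344SQ, against 253, 308 and 203 CPM in CAFs alone. Lifr, the receptor of leukaemia inhibitory factor, had a log2 change of -1.51 ± 0.31, and Il6st, the shared receptor subunit gp130, one of -0.77 ± 0.16. All 3 receptor calls held without each library.

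C3 was 1 of 3 complement components that fell, of 6 tested (0 rose, median log2 change -0.855). C4b had 25.7, 21.8 and 16.8 CPM in CAFs with 344SQ, against 74.1, 122 and 72.1 CPM in CAFs alone. Reads of C4b cannot be separated with certainty from its near-identical neighbour C4a. Ptgs2, the inducible cyclooxygenase that makes prostaglandins (ENSMUSG00000032487.8, chromosome 1, 150100031 to 150108227), had 859.7, 759 and 1173 CPM in CAFs with 344SQ, against 258, 374 and 408 CPM in CAFs alone. Plpp3 and Lpar1, an enzyme that degrades lysophosphatidic acid and a receptor for it, fell to 78.6 ± 5.48 and 70.8 ± 21.1 CPM with 344SQ, against 192 ± 25.7 and 155 ± 31.4 CPM alone (SD, n = 3 each). Among 14 feedback and target genes of nuclear factor kappa B, Vcam1 included, 0 were called by edgeR or DESeq2, and 0 had an unadjusted p under 0.05.

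The lists of matrix genes held both rises and falls, where 3.48% of all genes tested rose and 2.36% fell. Of 10 fibrillar and related collagens tested 0 were called by edgeR or DESeq2, and 1 had an unadjusted p under 0.05 (median log2 change -0.0503). Col1a1, a chain of the main fibrillar collagen, had 825, 987 and 895 CPM in CAFs with 344SQ, against 1122, 905 and 751 CPM in CAFs alone (log2 change -0.04 ± 0.17). Col1a2, the partner chain, had 859, 897 and 1065 CPM in CAFs with 344SQ, against 1509, 1230.5 and 1159 CPM in CAFs alone, and its change of -0.47 ± 0.16 was not called (adjusted p = 0.0939), although the groups did not overlap. Among 20 genes of basement membranes and other collagens 1 rose and 3 fell (median log2 change -0.116). Col4a6, a collagen IV chain, had 6.17, 6.06 and 17.7 CPM in CAFs with 344SQ, against 41.4, 60.8 and 51.2 CPM in CAFs alone. Nid1, the linker protein nidogen 1, had 1670.0, 1435 and 1101 CPM in CAFs with 344SQ, against 2569, 2715 and 3445 CPM in CAFs alone. Lama4, a laminin chain, had 256, 201 and 219 CPM in CAFs with 344SQ, against 143, 127 and 120.2 CPM in CAFs alone. Thus Col4a6 and Nid1 fell and Lama4 rose. Of 26 glycoproteins 5 rose and 5 fell (median log2 change 0.261). Tnc, tenascin C, had 655, 817 and 1214 CPM in CAFs with 344SQ, against 215, 408 and 206 CPM in CAFs alone. Abi3bp, a matrix protein, had 262, 449.8 and 549 CPM in CAFs with 344SQ, against 114, 131 and 99.3 CPM in CAFs alone. Mgp, matrix Gla protein, an inhibitor of calcification, had 94.6, 253 and 346 CPM in CAFs with 344SQ, against 52.6, 39.6 and 45.0 CPM in CAFs alone. In each of the 3 the lowest library with 344SQ exceeded the highest alone. Tnxb, tenascin X, had 20.6, 18.2 and 19.6 CPM in CAFs with 344SQ, against 101, 83.3 and 103 CPM in CAFs alone, with no library near the other group, and Smoc1, a calcium-binding matricellular protein, changed by -1.84 ± 0.26.

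Elastic fibre genes were split as well, with 2 of 10 risen and 2 fallen (median log2 change -0.159), and 1 risen without CAFs alone replicate 3 or 344SQ replicate 2. Fbn1, fibrillin 1, had 1354, 1194 and 1078 CPM in CAFs with 344SQ, against 557, 584 and 560.3 CPM in CAFs alone. Efemp1, fibulin 3, had 59.6, 47.3 and 72.8 CPM in CAFs with 344SQ, against 248, 172 and 210.1 CPM in CAFs alone. Fbln2, fibulin 2, had 663, 495 and 522 CPM in CAFs with 344SQ, against 1006, 1309.8 and 1229 CPM in CAFs alone. In all 3 the groups were apart. Tmem2, a cell-surface hyaluronidase, had 275, 201 and 225 CPM in CAFs with 344SQ, against 85.3, 67.4 and 71.1 CPM in CAFs alone, while Cemip fell, so 2 genes of hyaluronan breakdown moved in opposite directions. The heparan sulphate proteoglycans Gpc1 and Sdc2 rose by 1.48 ± 0.20 and 0.84 ± 0.20, and Podn, a small leucine-rich proteoglycan, changed by -1.28 ± 0.21. Tll1, a tolloid protease that trims procollagen, had 56.6, 94.6 and 39.2 CPM in CAFs with 344SQ, against 12.1, 19.8 and 7.32 CPM in CAFs alone. Plod2, which hydroxylates collagen lysines for cross-linking, had 61.7, 71.5 and 58.8 CPM in CAFs with 344SQ, against 188, 109.7 and 148 CPM in CAFs alone, without overlap between the groups.

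Among 31 matrix proteases tested 1 rose and 6 fell, where 3.48% of all genes tested rose and 2.36% fell. The median log2 change of the 31 was -0.211. When single libraries were left out, 4 to 6 of them fell and 1 or 2 rose. Adam12, Adam23 and Prss23 changed by -1.89 ± 0.24, -1.39 ± 0.25 and -2.24 ± 0.49, and Mmp19 by 0.93 ± 0.18. Adam12, a membrane metalloprotease that is often raised in activated fibroblasts, had 24.7, 15.8 and 27.1 CPM in CAFs with 344SQ, against 77.5, 100.4 and 78.4 CPM in CAFs alone. Serpine2, protease nexin 1, an inhibitor of thrombin and plasminogen activators, had 147 ± 61.3 CPM with 344SQ and 24.6 ± 5.77 CPM alone (SD, n = 3 each). Its highest library alone lay under its lowest with 344SQ.

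At the cell surface Thy1, a marker of fibroblasts, had 368, 1098 and 627 CPM in CAFs with 344SQ, against 143, 177 and 183 CPM in CAFs alone, so that every library with 344SQ was higher but replicate 2 was almost 3 times replicate 1. Itga6, a laminin-binding integrin, rose by 1.21 ± 0.36, a call lost without any of 4 libraries. Sema5a, a transmembrane semaphorin, had 371, 531 and 474 CPM in CAFs with 344SQ, against 196, 164 and 151 CPM in CAFs alone. Sema3c, a secreted one, had 21.6, 21.8 and 31.7 CPM in CAFs with 344SQ, against 89.6, 114 and 102 CPM in CAFs alone. Sema5a and Sema7a rose and Sema3c fell, and of 14 guidance and neural ligands tested 4 rose and 2 fell, and 1 fell without CAFs alone replicate 3 or 344SQ replicate 1 or 2. Ion and solute transport genes rose in 3 of 22 tested and fell in 2 (median log2 change -0.0927), and 0 fell without CAFs alone replicate 1. The calcium channel gene Cacna1c had 297, 463 and 429 CPM in CAFs with 344SQ, against 119, 132 and 124 CPM in CAFs alone. The mechanosensitive channel gene Piezo2 had 60.7, 53.3 and 121 CPM in CAFs with 344SQ, against 19.8, 15.9 and 8.36 CPM in CAFs alone. The phosphate transporter gene Slc20a1 had 169, 338 and 475 CPM in CAFs with 344SQ, against 63.8, 116 and 71.1 CPM in CAFs alone. For all 3 each library with 344SQ was above each library alone. Of 24 actin cytoskeleton genes tested 0 rose and 2 fell, 1 of them also without CAFs alone replicate 3. That one, the focal adhesion gene Zyx, had 133, 183 and 166 CPM in CAFs with 344SQ, against 274, 292 and 409 CPM in CAFs alone. Wwtr1, which encodes the Hippo effector TAZ, rose by 0.96 ± 0.19.

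Transcription factors of mesenchymal cells rose in 4 of 23 tested and fell in 0 (median log2 change 0.300), and 2 rose without CAFs alone replicate 3 or 344SQ replicate 3. Besides Twist1, Snai1 had 106, 129 and 161 CPM in CAFs with 344SQ, against 74.1, 56.8 and 45.0 CPM in CAFs alone. Zeb1, another factor of the mesenchymal state, had 94.6, 114 and 112 CPM in CAFs with 344SQ, against 92.2, 89.9 and 88.9 CPM in CAFs alone and was not called (log2 change 0.24 ± 0.18, adjusted p = 0.579). Gli2, an effector of Hedgehog signalling, had 191, 223 and 157 CPM in CAFs with 344SQ, against 109, 81.9 and 62.7 CPM in CAFs alone. Hmga2, an architectural chromatin protein of embryonic and tumour cells (ENSMUSG00000056758.14, chromosome 10, 120361275 to 120476469), had 520.3, 518 and 589 CPM in CAFs with 344SQ, against 175, 252 and 133 CPM in CAFs alone. For both Gli2 and Hmga2 the groups were apart. Among 8 genes of aryl hydrocarbon and retinoid signalling 4 rose and 1 fell (median log2 change 1.10), and 2 rose without CAFs alone replicate 3. Ahr, the aryl hydrocarbon receptor (ENSMUSG00000019256.17, chromosome 12, 35497974 to 35535038), had 397, 516 and 485 CPM in CAFs with 344SQ, against 104, 136 and 119 CPM in CAFs alone, a log2 change of 1.97 ± 0.17 (adjusted p = 4.94e-09). Cyp1b1, an enzyme known as a target of that receptor, had 27.8, 31.5 and 29.9 CPM in CAFs with 344SQ, against 109, 107 and 97.2 CPM in CAFs alone. The receptor and this target thus moved in opposite directions, and their libraries were tightly grouped. Of 26 genes of hypoxia and glycolysis 3 rose, Epas1 and Vegfa among them, and 1 fell, with a median log2 change of -0.104, and 0 fell without CAFs alone replicate 1 or 344SQ replicate 2.

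Smaller groups changed by few genes, where 3.48% of all genes tested rose and 2.36% fell. Of 27 immediate early genes 4 rose and 0 fell, by 0.67 ± 0.18 for Jun, 0.86 ± 0.21 for Egr3, 1.03 ± 0.23 for Ier3 and 1.05 ± 0.26 for Fosl1 on the log2 scale. Each of the 4 lost its call when some single library was left out, and 1 of the 27 rose without CAFs alone replicate 3. Of 15 p53 targets all had a log2 change under 0 (median -0.425), with Ccng1 at -0.82 ± 0.19 and Zmat3 at -0.66 ± 0.18 called, 1 called without CAFs alone replicate 3 or 344SQ replicate 3, and 0 without 344SQ replicate 2. Of 27 genes of cholesterol and fatty acid synthesis 24 had a change above 0 (median 0.399) and 4 rose, namely Scd1 (0.74 ± 0.17), Scd2 (0.66 ± 0.17), Sqle (1.18 ± 0.32) and Acaca (0.70 ± 0.21). Only 1 of the 27 rose without CAFs alone replicate 1 or 3 or 344SQ replicate 2, and 2 rose without 344SQ replicate 1. The antioxidant genes Prdx1 and Sod3 rose by 1.20 ± 0.29 and 1.28 ± 0.28, calls lost without CAFs alone replicate 1 and without 344SQ replicate 2, and the metallothionein gene Mt2 changed by -1.47 ± 0.33, a call lost without 344SQ replicate 3. Dnajb9, an endoplasmic reticulum chaperone, rose by 0.83 ± 0.22, and Npm1, nucleophosmin, changed by -0.54 ± 0.15. The call of Dnajb9 was lost without CAFs alone replicate 3 or 344SQ replicate 2, and that of Npm1 without any library but CAFs alone replicate 1. Neither edgeR nor DESeq2 made a call among 8 interferon response genes, 6 genes of class I antigen presentation, 11 heat shock genes, 7 Notch genes, 11 cell cycle genes or 28 nuclear genes of oxidative phosphorylation. At an unadjusted p under 0.05 there were 1, 1, 2, 1, 2 and 4 of them. The oxidative phosphorylation genes had a median log2 change of 0.336, with 20 of 28 above 0.

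**Figure D4:**
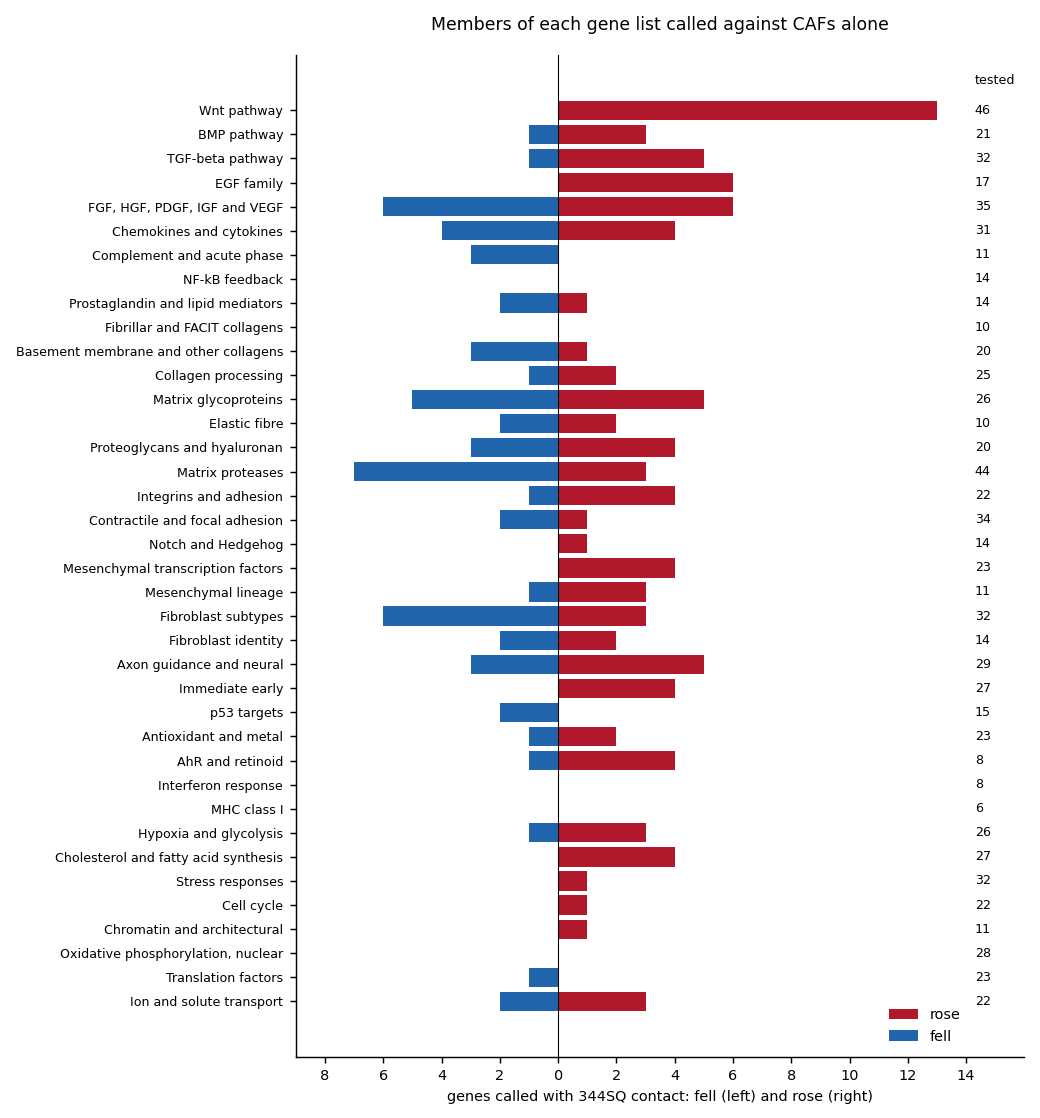
Number of members of each gene list that fell (blue, left of 0) or rose (red, right of 0) with 344SQ contact over CAFs alone, with the number tested at the right. Lists differ in length, so bars are to be read against the number tested. Of all genes tested 3.48% rose and 2.36% fell. The Wnt list has 13 rises and 0 falls of 46 tested, while matrix proteases, complement and fibroblast subtype genes have more falls than rises.

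Genes that mark fibroblast states moved unevenly. Of 10 inflammatory CAF genes tested, 0 rose and 4 fell (Cxcl12, C3, Efemp1 and Pdgfra), with a median log2 change of -0.364. Of 12 myofibroblastic CAF genes 3 rose and 0 fell, Thy1 and Tnc among the 3, while the median log2 change of the 12 was -0.188. Acta2, the smooth muscle actin gene of myofibroblasts, had 32.9, 13.3 and 8.40 CPM in CAFs with 344SQ, against 12.1, 15.9 and 57.5 CPM in CAFs alone. Its groups overlapped, and its log2 change of -0.64 ± 0.52 was not called (adjusted p = 0.611). Il6, the cytokine gene most used to mark inflammatory CAFs, had 9.25, 10.9 and 3.73 CPM in CAFs with 344SQ, against 4.31, 11.9 and 6.27 CPM in CAFs alone, with overlapping groups, and was not called (log2 change 0.13 ± 0.54, adjusted p = 0.948). Fap, fibroblast activation protein, had 24.7, 18.2 and 18.7 CPM in CAFs with 344SQ, against 9.48, 5.29 and 12.5 CPM in CAFs alone, without overlap but not called (log2 change 1.13 ± 0.35, adjusted p = 0.0549). Pdpn, podoplanin, and Vim, vimentin, had overlapping groups, with log2 changes of 0.63 ± 0.28 and 0.25 ± 0.16. Mesothelial Bnc1, chosen after its values were seen, was the only mesothelial marker tested and fell, with 27.5, 7.36 and 7.34 CPM of total counts with 344SQ and 47.6, 29.0 and 46.6 CPM alone. The call of Bnc1 did not hold without CAFs alone replicate 3 or 344SQ replicate 2 or 3. The other mesothelial markers had at most 7 counts in any library. Of these, Wt1 had 0 counts in each library with 344SQ and 2, 5 and 1 alone, Msln 0, 4 and 1 with 344SQ and 0, 1 and 0 alone, and Upk3b 2, 0 and 0 with 344SQ and 1, 1 and 1 alone. Rspo1 and Lrrn4 had 0 counts in each library with 344SQ, against 7, 2 and 6 and 1, 1 and 2 alone. Nkain4 had 3, 1 and 5 with 344SQ and 7, 2 and 5 alone, and Krt19 had 3, 0 and 0 with 344SQ and 2, 2 and 1 alone. Upk1b and Gpm6a had no count.

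A direct test of CAFs with 344SQ against CAFs with 393P asked which of these changes differed between the lines. It called 332 of 7992 genes (4.15%), 177 higher and 155 lower with 344SQ. Of the 278 genes that rose with 344SQ over CAFs alone, 54 were also called higher than with 393P and 22 lower. Of the 189 that fell, 12 were called lower than with 393P and 21 higher. Penk had 31.9, 84.9 and 64.4 CPM with 344SQ and 0.938, 0.793 and 4.18 CPM with 393P, a log2 difference of 4.94 ± 0.50 (adjusted p = 4.83e-08). Cadps had 60 counts over the 3 libraries with 344SQ and 2 with 393P, a depth-scaled ratio of 34.3 (95% exact interval 9.10 to 290.0, counting error only). Cd53, Ism1 and Lin7a were higher by 2.53 ± 0.38, 2.77 ± 0.43 and 1.80 ± 0.48. These 5 were higher with 344SQ than with 393P by more than the replicate spread. Cxadr, the 1 carcinoma marker tested, was also called higher with 344SQ than with 393P. The part of carcinoma RNA in the differences between the lines was not tested. Nkd2 had 93.6, 204 and 87.7 CPM with 344SQ and 89.1, 69.0 and 51.2 CPM with 393P. Its groups overlapped, and its difference of 0.86 ± 0.25 was called close to the threshold (adjusted p = 0.0461). Axin2 differed by 0.08 ± 0.25 (adjusted p = 0.945).

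Wnt inhibitors differed in both directions between the lines. Sfrp2 had 128, 136 and 102 CPM with 344SQ and 4.69, 10.3 and 16.7 CPM with 393P (3.53 ± 0.31), while Kremen1 was lower with 344SQ (-0.74 ± 0.18). Grem1 was higher by 1.14 ± 0.16. Among the falls, Peg3, an imprinted zinc finger gene, had 11.3, 3.64 and 3.73 CPM with 344SQ, 18.8, 25.4 and 30.3 CPM with 393P and 15.51, 33.0 and 47.0 CPM alone. Adam12, Cyp1b1, Fbln2, Plpp3 and Inpp5f, a phosphoinositide phosphatase gene, were also lower than with 393P, by log2 differences of -1.15 ± 0.25, -1.18 ± 0.27, -0.89 ± 0.16, -0.82 ± 0.22 and -0.82 ± 0.23. For 5 of these 6 genes the groups did not overlap. Plpp3 had 73.0, 78.8 and 84.0 CPM with 344SQ and 181, 156 and 76.3 CPM with 393P, so that 393P replicate 3 lay within the 344SQ range. Acta2 and Il6, which were not called against CAFs alone, were called lower than with 393P. Acta2 had 32.9, 13.3 and 8.40 CPM with 344SQ and 31.0, 76.9 and 121 CPM with 393P (-2.05 ± 0.46, adjusted p = 0.00534), with overlap at 1 library. Il6 had 9.25, 10.9 and 3.73 CPM with 344SQ and 36.6, 30.1 and 15.7 CPM with 393P (-1.82 ± 0.43, adjusted p = 0.00952), without overlap. Other genes were changed further by 393P. Sema7a had 66.6, 53.9 and 70.0 CPM with 393P, and Cemip 12.2, 11.1 and 7.31 CPM, so that 344SQ differed from 393P by -1.19 ± 0.28 and 1.41 ± 0.33. Spp1 did not differ detectably, at 495, 314 and 330.2 CPM with 344SQ and 453, 361 and 389 CPM with 393P (-0.08 ± 0.17). The changes over CAFs alone of the lines share their 3 libraries of CAFs alone.

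Whether the same line acts on CAFs across a membrane was asked of the Boyden chamber libraries, in which 2087 of 14040 genes were called against CAFs alone (14.9%). The formats differ in more than contact: Cemip, for example, had 2708, 2848, 2696, 3009 and 2932 CPM in CAFs alone in the chamber, against 177, 189 and 177 CPM in CAFs alone in aggregates. The difference between the 344SQ changes of the formats was therefore tested in 1 model. It was called for 741 of 7827 genes (9.47%), 386 higher and 355 lower in contact. The model gave each gene 1 spread for both formats, although common variation was 16.2% in aggregates and 8.58% in the chamber. The SEs and p-values of the difference may therefore overstate its precision. For Cxcl12 the SE of the difference was 0.148, against 0.174 for the contact change alone. Of the genes that rose in contact 187 of 258 tested had a called difference, each towards a higher change in contact, and of those that fell 158 of 186, each towards a lower change. These genes were chosen by their change in contact, so that direction is fixed in part by the choice.

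Wnt genes were among those that differed most between the formats. Sfrp2 had 1.91, 4.34, 1.88, 1.09 and 3.75 CPM across the membrane, against 9.69, 7.81, 4.96, 5.63 and 13.6 CPM in CAFs alone, a log2 change of -1.65 ± 0.31, and the formats differed by 4.10 ± 0.45 (adjusted p = 5.08e-08). Apcdd1 had 8.41, 9.02, 5.21, 7.43 and 7.27 CPM across the membrane and 13.9, 10.3, 9.81, 11.8 and 11.2 CPM alone, a difference between formats of 3.25 ± 0.36. Both were thus lower across the membrane and higher in contact. Twist1 and Alcam changed by -0.12 ± 0.15 and -0.04 ± 0.36 across the membrane and differed by 2.84 ± 0.39 and 2.66 ± 0.52. Tpbg, the Wnt-modulating surface protein trophoblast glycoprotein, and Nkd2 rose in both formats and more in contact, with differences of 2.04 ± 0.38 and 1.57 ± 0.45. Penk and Cadps had too few counts in the chamber to be tested.

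Ahr fell across the membrane, with 201, 202, 191, 201 and 186 CPM against 293, 299, 265, 269 and 285 CPM alone (log2 change -0.52 ± 0.06), so its difference of 2.50 ± 0.14 was among the clearest (adjusted p = 2.37e-15). Cxcl12 changed by -0.23 ± 0.05 across the membrane and by -2.48 ± 0.17 in contact, a difference of -2.26 ± 0.15. Pkia, Enpp3, Cemip, Nckap5, Gm38056 and Gm19514 had differences of -4.47 ± 1.03, -3.04 ± 0.53, -2.51 ± 0.20, -2.85 ± 0.62, -2.37 ± 0.57 and -3.08 ± 0.63. For Pkia the contact value rests on 1 count, so its size is poorly known. For some genes the difference was not called. Spp1 had 101, 106, 115, 133 and 117 CPM across the membrane and 15.9, 22.1, 19.1, 21.03 and 23.7 CPM alone, a log2 change of 2.48 ± 0.09, and the formats differed by -0.23 ± 0.20 (adjusted p = 0.545). Hmga2 had 557, 509.7, 609.8, 578 and 559.6 CPM across the membrane and 235, 234, 233, 223 and 208 CPM alone, with a difference between formats of 0.25 ± 0.16 (adjusted p = 0.38). Ereg rose in both formats, by 1.24 ± 0.08 across the membrane and by 2.40 ± 0.25 in contact, and here the difference of 1.18 ± 0.24 was called. A difference that is not called does not show that the formats act alike.

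**Figure D5:**
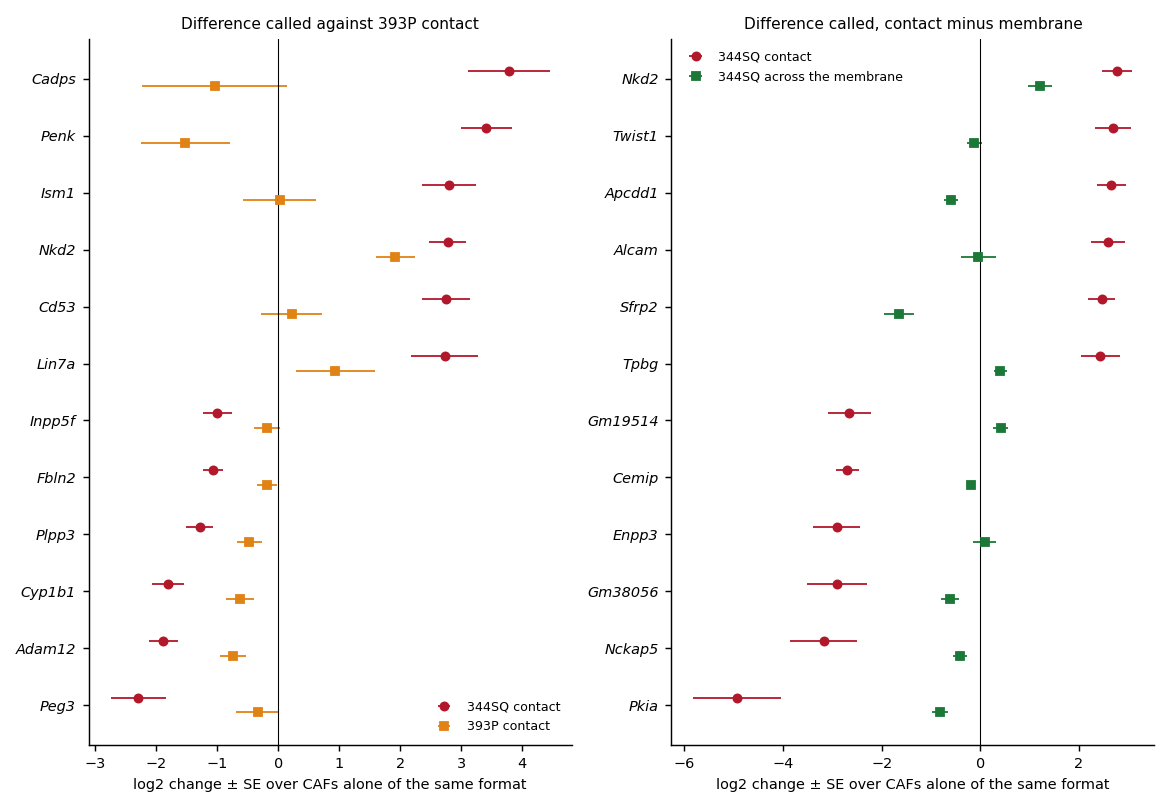
Log2 change over CAFs alone, with its standard error, for the genes that differ most by the naming rule. Left, 344SQ contact (red circles) above 393P contact (orange squares), and right, 344SQ contact above 344SQ across the membrane (green squares), each against CAFs alone of its own format. In the left panel the changes share the libraries of CAFs alone, and in both panels the genes were chosen because the difference was called.

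Counts of named genes that an exon of another gene overlaps on the opposite strand cannot be told apart from that gene, since the strand setting is not given in the sources used here. Among the genes described this holds for Ahr, Axin2, Ccnd1, Dnajb9, Ereg, Fbn1, Fgf2, Fosl1, Gas6, Gm38056, Gpc1, Hmga2, Jun, Lef1, Mmp19, Mt2, Nid1, Pdgfra, Penk, Plod2, Prss23, Rspo3, Sfrp2, Slc20a1, Sorl1, Stc1, Tmem2, Tnc, Tnfsf9, Tnxb, Tpbg, Wnt7b, Zeb1 and Zyx.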

How the data were processed

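RNA of sorted mouse CAFs was sequenced after sonication and ligation, per the labels. The authors deposited raw counts per gene and library, made with STAR and HTSeq on mm10, per the submitters' processing notes. Their versions, gene annotation and strand setting were not given in the sources used here. Positions and overlaps were taken from GENCODE M21 (48058 of 48440 identifiers matched). The counts were filtered with filterByExpr (minimum count 10, minimum total 15), scaled with TMM factors and fitted in edgeR 4.0.16 (R 4.3.3) with all 9 aggregate libraries, 1 mean per group. 2-sided quasi-likelihood tests were adjusted by Benjamini-Hochberg over all genes tested, with a threshold of 0.05. CPM are TMM-scaled, except for marker sums, which use total counts. SE is the size of the log2 change divided by the square root of the F statistic. Boyden replicates were each the sum of 3 technical libraries, with 4182944 to 8542262 counts. For the difference between formats both tables were fitted together, with 1 spread per gene for both. edgeR's common biological variation came to 16.2% for aggregates and 8.58% for the chamber. Simulated counts were used to test the fits. Intervals of ratios cover counting error only.

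The members, lists and tests were chosen with earlier results of these data known. Named genes were the 12 largest rises and 12 largest falls among genes called in each fit that left out 1 of the 6 libraries, with groups that did not overlap and a higher group averaging 10 CPM or more; up to 4 genes per role of each list that were called in each of those fits, else up to 4 called, else the 2 of highest level; 10 fixed genes; and the 6 largest rises and falls that also differed from 393P and from the membrane. Not every list gene is named. Alternatives were no filter, RLE and upper-quartile scaling, removal of rRNA-like and mitochondrial genes, DESeq2 1.42.0, limma 3.58.1 (voom with quality weights), only 6 libraries, a log2 change of at least 1, a replicate block and leaving out each replicate. The shRNA table was not used here. Figures were drawn with matplotlib in Python 3.11.15.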

Additional observations from a re-analysis of the deposited data

Results flagged for a closer look

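Some named genes changed differently with 344SQ contact than in another setting, by a test of the difference itself. Against 393P contact, log2 differences (344SQ minus 393P) were 4.82 for Cadps, 4.94 for Penk, 2.77 for Ism1, 0.86 for Nkd2, 2.53 for Cd53 and 1.80 for Lin7a among the rises, and -1.96 for Peg3, -1.15 for Adam12, -1.18 for Cyp1b1, -0.82 for Plpp3, -0.89 for Fbln2 and -0.82 for Inpp5f among the falls. Between contact and the membrane, differences of the 344SQ changes were 1.57 for Nkd2, 2.84 for Twist1, 3.25 for Apcdd1, 2.66 for Alcam, 4.10 for Sfrp2 and 2.04 for Tpbg, and -4.47 for Pkia, -2.85 for Nckap5, -2.37 for Gm38056, -3.04 for Enpp3, -2.51 for Cemip and -3.08 for Gm19514. Each was called by edgeR at an adjusted p under 0.05, and each gene was chosen because it was. No sample stood apart among the 34 groups of 5 Boyden replicates looked at for these genes and for Spp1, Ereg, Hmga2, Cxcl12 and Ahr. Groups of 3 aggregates were not looked at in this way.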

How the results depend on the processing

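The 467 genes called between 344SQ contact and CAFs alone became 514 without a filter, 465 with RLE factors, 471 with upper-quartile scaling, 466 without rRNA-like and mitochondrial genes, 366 with DESeq2 and 480 with only the 6 libraries, but 60 (38 higher, 22 lower) where a log2 change of at least 1 was required, a stricter question. Leaving out 1 library gave 284 to 511 calls here, 244 to 342 against 393P, 1581 to 2774 across the membrane and 595 to 741 for the difference between formats. That difference had 474 calls with limma-voom and quality weights, against 741 with edgeR, and the cause was not tested. Equal replicate numbers did not pair samples: the correlations of deviations were 0.0717, 0.0178 and -0.00572 between 344SQ and CAFs alone. A replicate block gave 467 calls in the main comparison, 321 against 393P, 1767 across the membrane and 701 between formats. Of 115 named genes called, 90 kept their call under every alternative other than the log2 change of at least 1, which 48 passed, and none reversed. Of 9 named genes not called that were followed through the alternatives, 3 changed sign when single libraries were left out. Acta2 ranged from -1.41 to 0.39, Il6 from -0.20 to 0.55 and Col1a1 from -0.18 to 0.11. Other uncalled genes were not among the 9: Wnt7b changed sign as well, from -0.047 to 0.427, while Rspo3 stayed between 0.153 and 0.621. Fap was called with the block (adjusted p = 0.0406). Totals of 757717 to 1135567 counts per library in the 6 libraries limit what can be seen of genes of low level.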
